A study of Chromochloris zofingiensis with 6 samples.

Results

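The genes described here encode the enzymes with which the green alga *Chromochloris zofingiensis* turns pyruvate and acetate into acetyl-CoA. They are 10 of the 15037 genes listed in at least 1 library and were chosen by identifier. The study's curated pathway tables annotate 4 of them as subunits of the chloroplastic pyruvate dehydrogenase complex (PDHC), 3 as subunits of the mitochondrial PDHC, 1 as pyruvate decarboxylase (PDC) and 2 as acetyl-CoA synthetase (ACS). The rule uses no expression value. Identifiers carry their transcript suffix where a gene is first described and are shortened elsewhere. Compartments are those of the study's annotation, and neither proteins nor enzyme activities were measured.

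Cells of strain ATCC30412 were grown to exponential phase in columns under continuous light and CO2-enriched air, spun down, washed and put at 0.5 g/L into Kuhl medium holding 200 mM NaCl. Each of the 6 libraries holds the poly-A RNA of 1 culture, taken at once (0 h, 3 cultures) or after 6 h (3 cultures). No library analysed here comes from cells kept for 6 h without added salt, so that the salt, the time in fresh medium and the handling cannot be told apart. In such bulk samples a smaller number of expressing cells and less RNA per cell cannot be told apart either.

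PDHC joins the end of glycolysis to fatty acid synthesis and respiration. Its E1 enzyme, made of an α and a β subunit, decarboxylates pyruvate with the help of thiamine diphosphate, E2 passes the acetyl group by way of lipoyl groups to coenzyme A, and E3 reoxidises the lipoyl groups and hands the electrons to NAD+. Algae and plants keep one such complex in the chloroplast, where acetyl-CoA is the building block of fatty acids, and another in the mitochondrion, where it enters the tricarboxylic acid cycle. A bypass starts from the same pyruvate: PDC splits it into acetaldehyde and CO2, aldehyde dehydrogenase oxidises acetaldehyde to acetate, and ACS activates acetate with ATP to give acetyl-CoA.

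The deposited unit is FPKM, in which fragment numbers are corrected for gene length and for the total mapped in a library, so that levels of different genes are set side by side per length. Fold changes are log2 differences (6 h minus 0 h) of FPKM divided by a scaling factor of each library, with 0.1 added. A gene counts as called where its log2 fold change reaches 1 in either direction and its adjusted p (limma, Benjamini-Hochberg over 13886 genes tested) is under 0.05. All 10 genes passed the filter for testing, a mean of at least 1 FPKM at either time.

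Over the whole transcriptome 2772 genes were called higher and 3692 lower (limma). The libraries listed 14682 to 14697 genes at 0 h and 14233 to 14433 at 6 h. Cultures differed more from each other at 6 h than at 0 h: the residual SD of a library was 0.289 to 0.630 on the log2 scale at 6 h against 0.165 to 0.195 at 0 h.

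Of the 10 acetyl-CoA route genes 6 rose, 1 fell and 3 were not called. Over all genes tested 20.0% were called higher and 26.6% were called lower (limma). All 4 chloroplastic PDHC genes, PDC and the ACS gene Cz09g15060 made up the 6 that rose, and the other ACS gene, Cz12g10100, was the one that fell. No mitochondrial PDHC gene was called. On deposited FPKM the 6 h libraries lay wholly above the 0 h libraries for the same 6 genes, wholly below them for 1 and overlapped them for 3. The same held for 27.2% (above) and 46.1% (below) of the genes tested. Without the limit on the fold change, 8 of the 10 genes were higher and 1 was lower at an adjusted p under 0.05 (limma), against 33.6% and 33.8% of the genes tested. The 8 became 6 without scaling, 5 with TPM and 5 with upper-quartile scaling. With the fold limit, 2772 of all genes tested were called higher, against 1925 without scaling, 1624 with TPM and 1925 with upper-quartile scaling. The median log2 fold change over the 10 genes was 1.92, that over all genes tested -0.04.

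**Figure D1:**
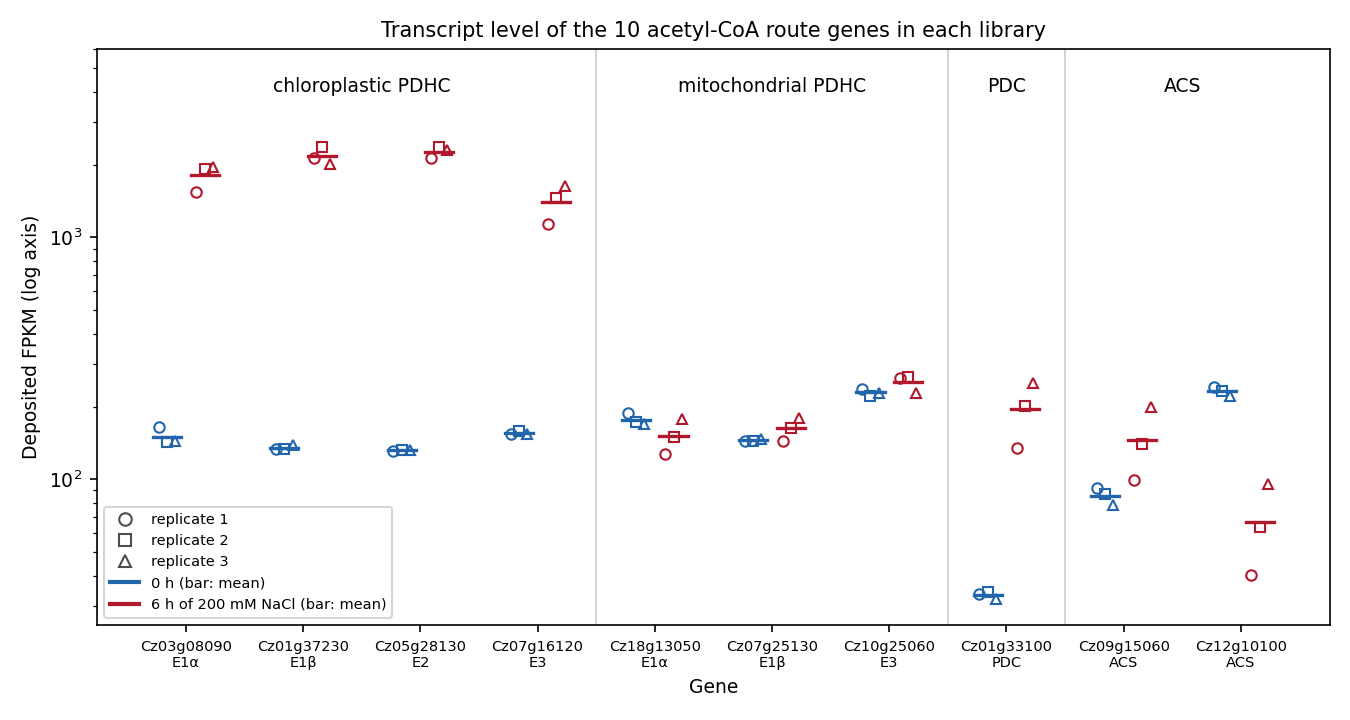
Deposited FPKM (log axis) of the 10 genes in each of the 6 libraries, with the 3 libraries of 0 h in blue, those of 6 h in red and a bar at each mean. The 4 chloroplastic PDHC genes stood between 131 and 164 FPKM at 0 h and between 1139.6 and 2368 FPKM at 6 h, whereas the 3 mitochondrial genes kept to 127 to 264 FPKM at both times.

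All subunits of the chloroplastic PDHC rose together, from about the level of their mitochondrial counterparts to among the most abundant transcripts of the cell. The E1α gene Cz03g08090.t1, which carries the thiamine-dependent chemistry with E1β, had 164, 142 and 144 FPKM in the 3 libraries of 0 h and 1545, 1922 and 1958 FPKM in those of 6 h. Every library of 6 h lay far above every library of 0 h. Its log2 fold change was 3.89 ± 0.14 (SE, n = 3 per time, limma, adjusted p = 9.9e-06).

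The E1β gene Cz01g37230.t1 had 133, 134 and 139 FPKM at 0 h and 2138, 2365 and 2010.5 FPKM at 6 h. The times did not overlap, and at 6 h the second culture was the highest, unlike for E1α. The log2 fold change was 4.31 ± 0.11 (SE, n = 3 per time, limma, adjusted p = 6.3e-06).

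The largest rise among the 10 genes was that of the E2 gene Cz05g28130.t1, the dihydrolipoamide acetyltransferase that forms the core of the complex. It had 131, 132 and 133 FPKM at 0 h and 2126, 2368 and 2306 FPKM at 6 h. The libraries of each time lay close together, with a coefficient of variation (CV) of 0.678% at 0 h and 5.53% at 6 h, and the times were far apart. The log2 fold change was 4.41 ± 0.10 (SE, n = 3 per time, limma, adjusted p = 6.3e-06), and 85 of the 13886 genes tested rose more.

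The E3 gene Cz07g16120.t1, a dihydrolipoamide dehydrogenase, had 155, 158 and 154 FPKM at 0 h and 1139.6, 1454 and 1629.5 FPKM at 6 h. By mean FPKM it was the highest of the 4 subunits at 0 h and the lowest at 6 h, although its times did not overlap either. Its log2 fold change was 3.47 ± 0.15 (SE, n = 3 per time, limma, adjusted p = 1.4e-05), and 211 genes tested rose more.

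By mean deposited FPKM the 4 subunits ranked between 865 and 1070 among the 15037 genes at 0 h, and at 6 h they ranked 35 (E2), 38 (E1β), 54 (E1α) and 97 (E3). Their summed FPKM made up 0.063%, 0.060% and 0.058% of the FPKM sum of the libraries at 0 h and 0.612%, 0.770% and 0.844% at 6 h. The summed scaled FPKM of the 4 genes was 512 ± 13.0 at 0 h against 8469 ± 537 at 6 h (SD, n = 3), a difference of 4.05 on the log2 scale (exact two-sided permutation test, p = 0.1, the smallest p that 3 against 3 libraries allow). Without scaling the sum was 583, 566 and 569 FPKM at 0 h and 6949, 8108 and 7904 FPKM at 6 h, a difference of 3.74 on the log2 scale.

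**Figure D2:**
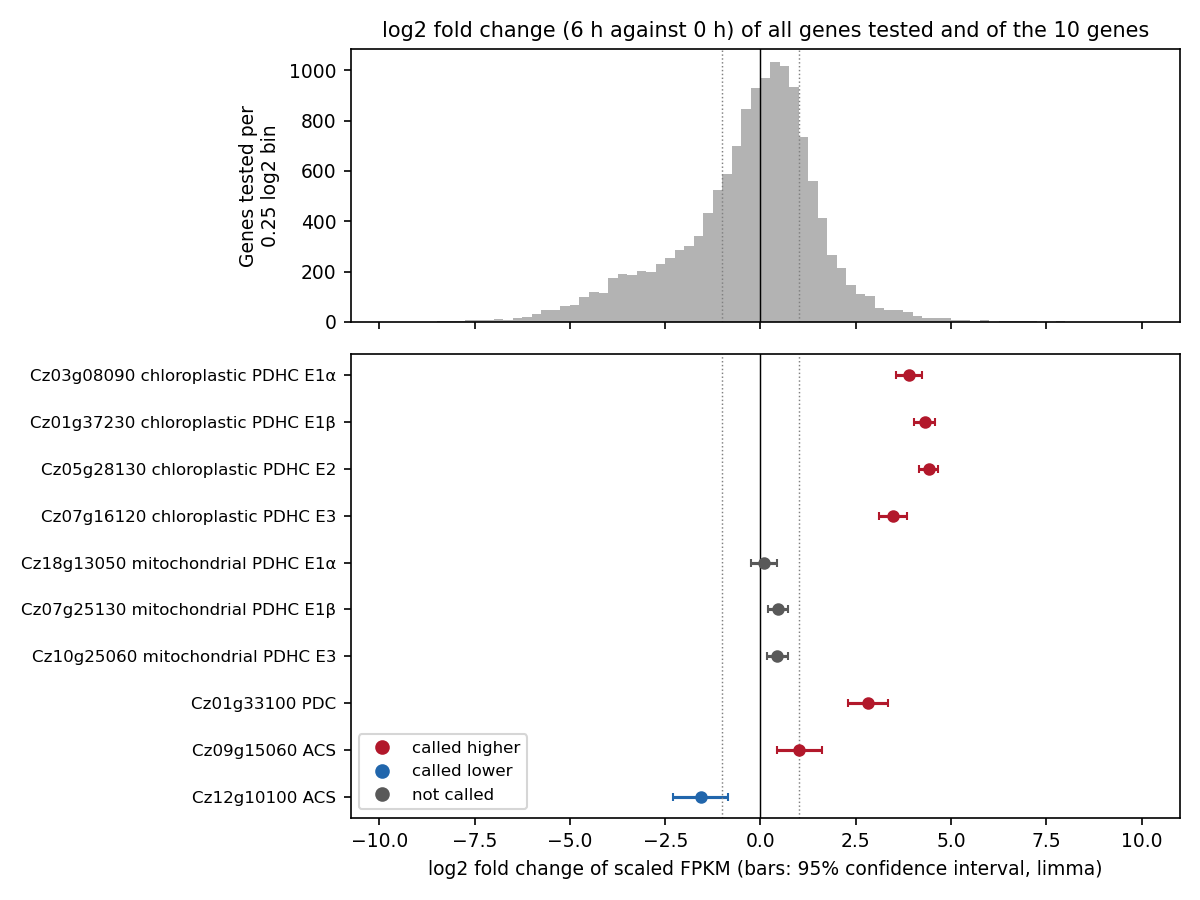
Top, number of genes tested per bin of 0.25 in log2 fold change (6 h against 0 h, scaled FPKM). Bottom, log2 fold change of the 10 genes with 95% confidence intervals (limma), in red where called higher, blue where called lower and grey where not called, with dotted lines at -1 and 1. The 4 chloroplastic PDHC genes lie in the right tail, between 3.47 and 4.41, while the 3 mitochondrial genes lie between 0.08 and 0.47, near the bulk of the genes.

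The 4 subunits did not rise in equal proportion. Of the summed FPKM of the 4 genes, E2 took 22.4%, 23.3% and 23.3% at 0 h and 30.6%, 29.2% and 29.2% at 6 h. E3 went the other way, from 26.5%, 28.0% and 27.0% at 0 h to 16.4%, 17.9% and 20.6% at 6 h. For both subunits the 2 times were apart in every library.

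The share of E1β was 23.6 ± 0.740% at 0 h and 28.5 ± 2.74% at 6 h, and that of E1α 26.2 ± 1.72% and 23.6 ± 1.27% (SD, n = 3). In each of the 4 subunits the shares of the times did not overlap, with p = 0.1 by an exact two-sided permutation test before and after adjustment over the 4 subunits. The E1α gene came nearest to an overlap, with 25.1% in its lowest library of 0 h and 24.8% in its highest of 6 h. These shares are ratios within a library and do not depend on the scaling between libraries.

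**Figure D3:**
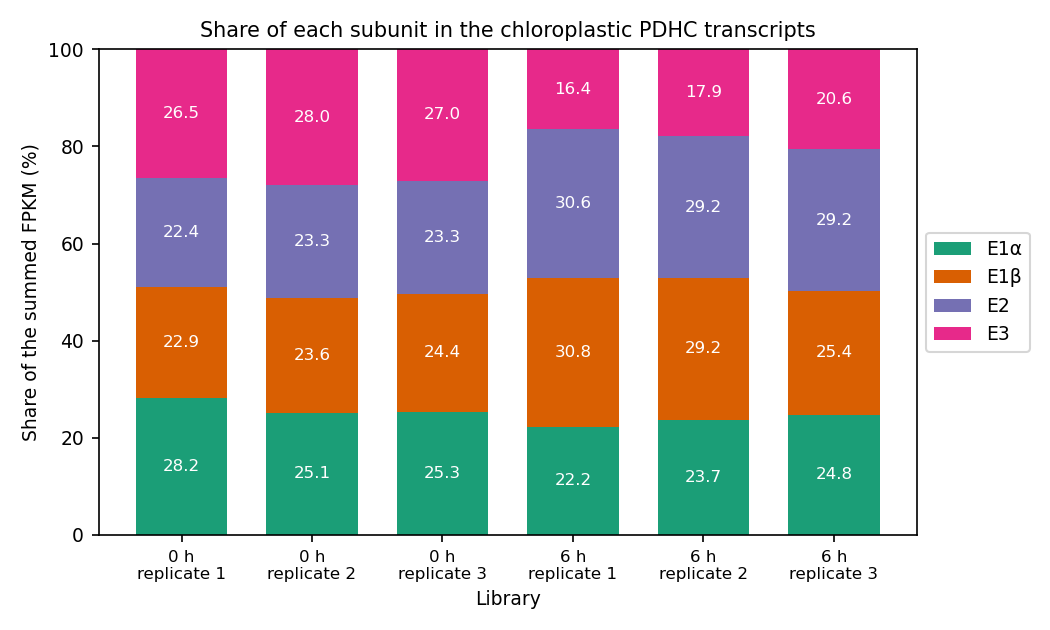
Share of each subunit gene in the summed deposited FPKM of the 4 chloroplastic PDHC genes (%), 1 bar per library. E2 widened from 22.4 to 23.3% at 0 h to 29.2 to 30.6% at 6 h, and E3 narrowed from 26.5 to 28.0% to 16.4 to 20.6%.

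The α and β subunits of E1 act together, and in both compartments the ratio of their transcripts was lower at 6 h. The libraries of 0 h had 1.23, 1.06 and 1.04 times as much E1α as E1β transcript in the chloroplastic pair, those of 6 h 0.723, 0.813 and 0.974 times as much. In the mitochondrial pair the libraries of 0 h had 1.30, 1.20 and 1.15 times as much, those of 6 h 0.888, 0.918 and 0.985 times as much. E1α was thus the higher of each pair in all 3 libraries of 0 h and the lower in all 3 of 6 h (exact two-sided permutation test, p = 0.1 for each pair).

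The mitochondrial PDHC genes changed little beside these. Its E1α gene Cz18g13050.t1 had 187, 172 and 169 FPKM at 0 h and 127, 150 and 177 FPKM at 6 h. The highest library of 6 h reached into the range of 0 h, and the other two lay below it. The log2 fold change was 0.08 (95% confidence interval -0.26 to 0.42, limma, adjusted p = 0.62), and on deposited FPKM, without scaling, it was -0.23.

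The mitochondrial E1β gene Cz07g25130.t1 had 144, 143 and 147 FPKM at 0 h and 144, 163 and 180.0 FPKM at 6 h. The first library of 6 h stood within the range of 0 h and the other two above it. Its log2 fold change was 0.47 ± 0.11 (SE, n = 3 per time, limma, adjusted p = 0.0090), past the p limit but below the fold limit.

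The mitochondrial E3 gene Cz10g25060.t1 had 237, 221 and 228 FPKM at 0 h and 263, 264 and 227 FPKM at 6 h. Here the third culture of 6 h was the one that fell within the range of 0 h. The log2 fold change was 0.44 ± 0.11 (SE, n = 3 per time, limma, adjusted p = 0.014), again below the fold limit. No mitochondrial E2 gene is among the 10.

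Small changes of this size move with the scaling between libraries. The median log2 fold change of all genes tested was -0.04 with the scaling used here, -0.34 without scaling and -0.47 with TPM, in which each library is divided by its FPKM sum. The values of mitochondrial E1β and E3 were 0.16 and 0.13 without scaling (limma, adjusted p = 0.25 and 0.31) and 0.03 and 0.00 with TPM (adjusted p = 0.89 and 0.99). Relative to the median of all genes, E1β stood 0.50 higher under each of these scalings, E3 0.47 to 0.48 higher and E1α 0.12 higher. That these distances hardly move is given by construction, since a scaling shifts all genes of a library alike.

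The summed scaled FPKM of the 3 mitochondrial genes was 491 ± 19.0 at 0 h against 626 ± 19.4 at 6 h (SD, n = 3), with no overlap (exact two-sided permutation test, p = 0.1). On deposited FPKM the sums were 568, 536 and 544 at 0 h and 534, 578 and 584 at 6 h, which overlap (exact two-sided permutation test, p = 0.5). For the 3 subunits that both compartments have in the tables, the ratio of the chloroplastic to the mitochondrial transcript was set up within each library, so that no scaling enters.

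This ratio was below 1 in all 3 libraries of 0 h for E1α, E1β and E3, and well above 1 in all 3 libraries of 6 h. For E1α it was 0.878, 0.826 and 0.854 at 0 h, against 12.1, 12.8 and 11.04 at 6 h. For E1β it was 0.928, 0.931 and 0.943 at 0 h, against 14.9, 14.5 and 11.2 at 6 h. For E3 it was 0.652, 0.717 and 0.674 at 0 h, against 4.33, 5.50 and 7.19 at 6 h.

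The geometric mean of the 3 ratios was 0.815 ± 0.005 at 0 h against 9.63 ± 0.430 at 6 h (SD, n = 3), a difference of 3.56 on the log2 scale (exact two-sided permutation test, p = 0.1). Its CV of 4.46% at 6 h was below those of its E1α, E1β and E3 parts, 7.50%, 15.1% and 25.3%. The first culture of 6 h had the smallest E3 ratio and the largest E1β ratio, and the third culture the reverse.

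**Figure D4:**
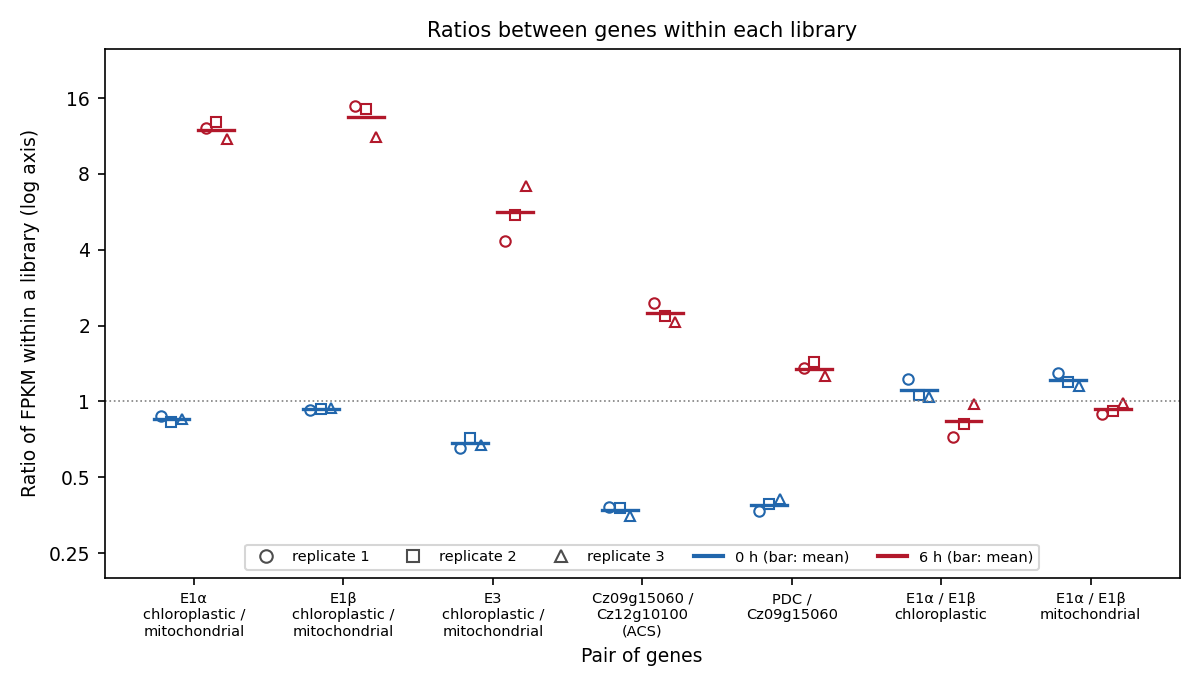
Ratio of deposited FPKM between pairs of genes within each library (log axis, dotted line at 1), with the libraries of 0 h in blue, those of 6 h in red and a bar at each mean. The chloroplastic to mitochondrial ratios passed from 0.652 to 0.943 at 0 h to 4.33 to 14.9 at 6 h, and the ratio of the 2 ACS genes from 0.352 to 0.382 to 2.07 to 2.47.

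PDC, the entry to the bypass, is known in *Chlamydomonas reinhardtii* from the fermentation of cells without oxygen. The PDC gene Cz01g33100.t1 was the lowest of the 10 genes at 0 h, with 33.6, 34.1 and 31.9 FPKM, and had 135, 200.1 and 250.1 FPKM at 6 h. The times were far apart, and the cultures of 6 h were spread widely, with a CV of 29.5% against 3.44% at 0 h. The log2 fold change was 2.82 ± 0.22 (SE, n = 3 per time, limma, adjusted p = 9.2e-05), and the gene moved from rank 6111 to rank 849 among the 15037 genes.

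The PDC transcript stayed below that of the chloroplastic PDHC at both times. The summed FPKM of the 4 chloroplastic subunits was 17.3, 16.6 and 17.9 times that of PDC at 0 h and 51.4, 40.5 and 31.6 times at 6 h. The ratio was higher at 6 h in every library (exact two-sided permutation test, p = 0.1), and its cultures of 6 h differed by more than those of 0 h.

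The 2 ACS genes, which encode the enzyme that activates acetate, went in opposite directions. Cz09g15060.t1 had 91.7, 87.2 and 78.0 FPKM at 0 h and 99.5, 140 and 199 FPKM at 6 h. The lowest culture of 6 h lay little above the highest of 0 h. Its log2 fold change was 1.02 ± 0.25 (SE, n = 3 per time, limma, adjusted p = 0.011), just past the fold limit. The call was lost without scaling (0.71, adjusted p = 0.045), with TPM (0.58, adjusted p = 0.15), and when replicate 3 of 0 h (0.95) or replicate 3 of 6 h (0.79) was left out (limma).

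Cz12g10100.t1 had 239.8, 232 and 222 FPKM at 0 h and 40.3, 63.7 and 96.0 FPKM at 6 h. All 3 cultures of 6 h lay below those of 0 h, the third one least so. The log2 fold change was -1.57 ± 0.30 (SE, n = 3 per time, limma, adjusted p = 0.0039). By mean FPKM the gene passed from the highest of the 10 at 0 h to the lowest at 6 h.

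The cultures of 6 h varied in both ACS genes, with CVs of 34.2% and 42.0%, yet the ratio between the genes varied little. In both genes culture 1 of 6 h was the lowest and culture 3 the highest, as in 34.7% of the genes tested on deposited FPKM. Cz09g15060 over Cz12g10100 was 0.382, 0.376 and 0.352 at 0 h, against 2.47, 2.19 and 2.07 at 6 h. The CV of the ratio was 4.37% at 0 h and 9.12% at 6 h. The difference between the times was 2.60 on the log2 scale (exact two-sided permutation test, p = 0.1), and it needs no scaling between libraries.

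Added together, the 2 ACS genes had 332, 319 and 299.8 FPKM at 0 h and 139.8, 203 and 295 FPKM at 6 h as deposited. All 3 of these sums of 6 h lay below those of 0 h (difference of -0.64 on the log2 scale, exact two-sided permutation test, p = 0.1). The third culture of 6 h came close to the cultures of 0 h, and the first had less than any other library. With scaling the sums were 283 ± 17.7 at 0 h against 235 ± 83.6 at 6 h (SD, n = 3), which overlap (difference of -0.33 on the log2 scale, exact two-sided permutation test, p = 0.4). Leaving out replicate 1 of 6 h gave a difference of -0.08 and leaving out replicate 3 of 6 h one of -0.59.

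PDC, the entry of the bypass, rose more than Cz09g15060, the ACS gene at its exit that rose. The other ACS gene, Cz12g10100, fell (-1.57 on the log2 scale). The scaled ACS sum overlapped between the times, while the deposited sum was lower in every library of 6 h. PDC over Cz09g15060 was 0.367, 0.391 and 0.409 at 0 h, against 1.36, 1.43 and 1.26 at 6 h. The PDC transcript was thus the lower of the pair in all 3 libraries of 0 h and the higher in all 3 of 6 h (exact two-sided permutation test, p = 0.1). The CV of the ratio was 5.45% at 0 h and 6.52% at 6 h, the latter below the CVs of 29.5% and 34.2% of the 2 genes. Both genes had culture 1 of 6 h lowest and culture 3 highest, an order that 34.7% of the genes tested had on deposited FPKM.

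In all, 21 such sums, ratios and shares were compared between the times, of which 18 were apart and 3 overlapped. They are not separate results, since sums recur with and without scaling and the shares and ratios depend on each other. Single genes were often apart too: on deposited FPKM 27.2% of those tested lay wholly above and 46.1% wholly below. Each of the 18 has the smallest possible p of 0.1 in the exact permutation test, 0.117 when adjusted over the 21, so that none can pass a limit of 0.05 with 3 libraries per time.

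The order of levels changed between the times. At 0 h Cz12g10100 (ACS) and Cz10g25060 (mitochondrial E3) led with mean levels of 231 and 229 FPKM and overlapping ranges. Cz18g13050 (mitochondrial E1α, 176 FPKM) followed apart from both neighbours. Chloroplastic E3, chloroplastic E1α and mitochondrial E1β came next, with 156, 150.1 and 145 FPKM, each overlapping the next, and below them chloroplastic E1β (135 FPKM), chloroplastic E2 (132 FPKM), Cz09g15060 (85.6 FPKM) and PDC (33.2 FPKM) were each apart from the next.

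At 6 h the 4 chloroplastic subunits held the first places. E2 (2267 FPKM) and E1β (2171 FPKM) overlapped, as did E1α (1808 FPKM) and E3 (1408 FPKM), and E1β was apart from E1α. The next 5 genes, from mitochondrial E3 (251 FPKM) by way of PDC (195 FPKM), mitochondrial E1β (162 FPKM) and mitochondrial E1α (152 FPKM) to Cz09g15060 (146 FPKM), each overlapped the next. Cz12g10100 (66.7 FPKM) stood apart as the lowest.

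All 10 genes varied more between the cultures of 6 h than between those of 0 h. Their CVs ran from 0.678 to 8.20% at 0 h and from 5.53 to 42.0% at 6 h, beside medians over all genes tested of 7.28% and 23.5%. The chloroplastic PDHC genes, at 5.53 to 17.6%, and the mitochondrial ones, at 8.51 to 16.5%, lay below the median of 6 h, and PDC and both ACS genes lay above it.

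In 7 of the 10 genes culture 1 of 6 h was the lowest and culture 3 the highest on deposited FPKM, a pattern that 34.7% of the genes tested shared. Chloroplastic E1β, chloroplastic E2 and mitochondrial E3 were the exceptions. The opposite pattern was found in none of the 10 genes and in 36.6% of the genes tested. On scaled FPKM it was found in 1 of the 10, mitochondrial E3, and in 39.9% of the genes tested.

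Likeness between genes was measured as the Euclidean distance between their log2 scaled levels over the 6 libraries, each taken as the difference from its own mean at 0 h. Set against the mean of the other 3 chloroplastic subunits, E1α lay at a distance of 0.363, with 5 of 13876 other genes nearer to that mean. E1β lay at 0.735 with 51 genes nearer, E2 at 0.908 with 82 nearer and E3 at 1.305 with 120 nearer.

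The genes nearest to the mean profile of the chloroplastic PDHC were UNPLg00160 (distance 0.212), Cz02g23030 (0.253), Cz13g08090 (0.289), UNPLg00114 (0.354) and Cz07g11020 (0.377). UNPLg00160, annotated in the study's tables as a BES1-interacting Myc-like protein, had 12.3, 13.2 and 14.2 FPKM at 0 h and 170.4, 192 and 187 FPKM at 6 h. These genes lie at lower levels than the PDHC subunits. The distance leaves out the level of a gene at 0 h but not the size of its change. Their log2 fold changes lay between 3.89 and 4.15.

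Nearest to PDC were Cz10g28180 (distance 0.130), Cz14g01130 (0.132), Cz05g33130 (0.162), Cz09g15070 (0.224) and Cz03g00230 (0.271). Cz14g01130, annotated as a low-CO2-inducible protein similar to LCIB, had 26.4, 28.1 and 24.4 FPKM at 0 h and 112, 167 and 204 FPKM at 6 h. Its cultures of 6 h stood in the same order as those of PDC, which the choice by distance favours. On deposited FPKM 34.7% of the genes tested had this order.

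Nearest to the ACS gene Cz09g15060 were UNPLg00309 (distance 0.112), Cz07g13120 (0.147), Cz01g06050 (0.154), Cz01g13260 (0.161) and Cz07g04180 (0.179). Of these the tables annotate Cz07g13120 as a 6-phosphofructokinase and Cz01g13260 as a betaine lipid synthase. Nearest to the ACS gene Cz12g10100 were Cz16g09120 (0.138), Cz05g28040 (0.162), Cz04g13210 (0.179), Cz12g09110 (0.196) and Cz09g26110 (0.204). These distances describe 6 libraries, of which the 3 of 0 h differ little.

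The remaining genes that the study lists as sources of acetyl-CoA number 11, of which 10 were tested. Among them 4 rose, 4 fell and 2 were not called (limma), with a median log2 fold change of 0.37. The shares over all genes tested were 20.0% called higher and 26.6% called lower. No gene of aldehyde dehydrogenase, the middle step of the bypass, was called higher. The aldehyde dehydrogenase gene Cz03g20090 had 276, 265 and 240.2 FPKM at 0 h and 20.1, 28.8 and 41.5 FPKM at 6 h, with a log2 fold change of -2.86 ± 0.25 (SE, n = 3 per time, limma, adjusted p = 0.00016).

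A second aldehyde dehydrogenase gene, Cz05g18170, marked as doubtful in the study's tables, had 90.3, 90.8 and 96.4 FPKM at 0 h and 74.2, 65.2 and 51.8 FPKM at 6 h. It was not called, with a log2 fold change of -0.24 (95% confidence interval -0.62 to 0.14, limma). The remaining one, Cz11g04290, stood at 0.21 to 0.55 FPKM at 0 h and at 0 to 0.13 FPKM at 6 h and was not tested.

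Acetate kinase and phosphate acetyltransferase, which together join acetate to acetyl-CoA by way of acetyl phosphate, fell. The log2 fold changes were -1.46 ± 0.24 (Cz03g26170) and -2.13 ± 0.16 (Cz03g26180) for the 2 acetate kinase genes and -2.27 ± 0.16 (Cz12g06080) for phosphate acetyltransferase (SE, n = 3 per time, limma, adjusted p of 0.0023 or less). Phosphate acetyltransferase had 89.3 to 94.3 FPKM at 0 h and 12.3 to 18.3 FPKM at 6 h. Like Cz12g10100, these genes had all 3 libraries of 6 h below those of 0 h, as had 46.1% of the genes tested on deposited FPKM.

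ATP-citrate lyase makes acetyl-CoA from citrate outside the mitochondrion and consists of 2 subunits. Its subunit A gene Cz08g00180 had 70.5, 75.2 and 71.8 FPKM at 0 h and 107, 132 and 134 FPKM at 6 h, and its subunit B gene Cz06g12020 86.0, 84.1 and 86.3 FPKM and 129, 151 and 129.6 FPKM. The log2 fold changes of 1.08 ± 0.11 and 0.98 ± 0.10 (SE, n = 3 per time, limma, adjusted p = 0.00030 and 0.00028) lie on either side of the fold limit, so that subunit A was called and subunit B was not. Without scaling the value of subunit A was 0.77, which is not called.

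The 3 candidate acetate permease genes rose. Cz01g32260 went from 0.21, 0.53 and 0.33 FPKM at 0 h to 34.6, 59.1 and 50.7 FPKM at 6 h, a log2 fold change of 7.02 ± 0.33, which 0.1 added to low values makes smaller. Cz01g32280 had a log2 fold change of 3.51 ± 0.27 and Cz11g03190 one of 3.32 ± 0.20 (SE, n = 3 per time, limma, adjusted p of 9.3e-05 or less). Cz11g03190 was the most abundant of the 3, with 70.0 to 83.0 FPKM at 0 h and 467 to 793 FPKM at 6 h.

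**Figure D5:**
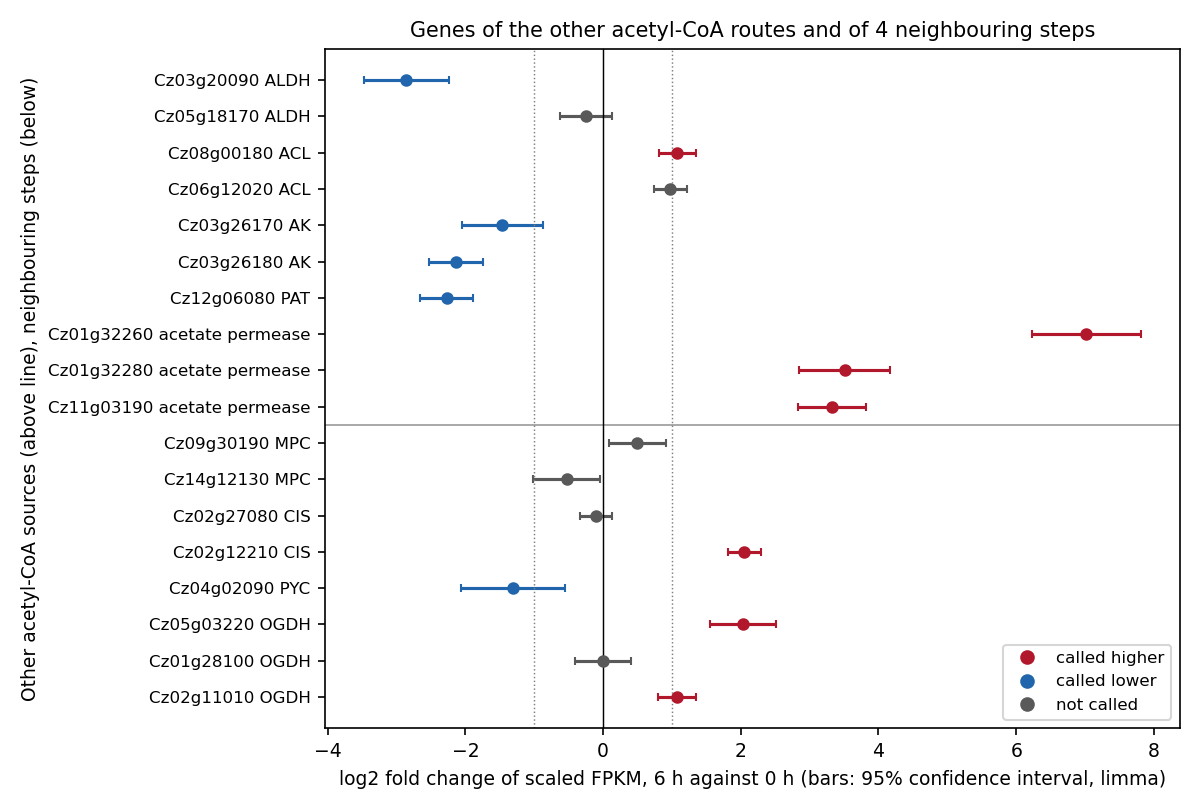
log2 fold change (6 h against 0 h, scaled FPKM) with 95% confidence intervals (limma) of the other tested genes listed as acetyl-CoA sources (above the line) and of 8 mitochondrial pyruvate carrier, citrate synthase, pyruvate carboxylase and 2-oxoglutarate dehydrogenase genes (MPC, CIS, PYC and OGDH, below it), in red where called higher, blue where called lower and grey where not called. Aldehyde dehydrogenase (ALDH), acetate kinase (AK) and phosphate acetyltransferase (PAT) lie between -2.86 and -0.24, and the acetate permease genes between 3.32 and 7.02.

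A list of 8 genes around these routes held mitochondrial pyruvate carriers, citrate synthases, pyruvate carboxylase and 2-oxoglutarate dehydrogenase. Of them 3 rose, 1 fell and 4 were not called (limma), with a median log2 fold change of 0.25. Beside this stand the shares of 20.0% called higher and 26.6% called lower over all genes tested. The mitochondrial pyruvate carrier genes (MPC), which supply the mitochondrial PDHC, had log2 fold changes of 0.50 (Cz09g30190) and -0.53 (Cz14g12130) and were not called. One citrate synthase gene (CIS), Cz02g12210, rose by 2.05 ± 0.10 on the log2 scale, and the other, Cz02g27080, had a value of -0.10.

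2-Oxoglutarate dehydrogenase (OGDH) is built like PDHC and shares with it the type of E3 subunit. Its E1 gene Cz05g03220 rose by 2.03 ± 0.20 and its E2 gene Cz02g11010 by 1.07 ± 0.11, while a second E1 gene, Cz01g28100, had a value of 0.00 on the log2 scale. The call of the E2 gene was lost without scaling (0.76). The pyruvate carboxylase gene (PYC) Cz04g02090, whose enzyme makes oxaloacetate from pyruvate, fell by 1.31 on the log2 scale.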

How the data were processed

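The authors deposited FPKM per gene and library, listed with 2 decimals for genes above 0. The methods name TopHat and Cufflinks, whereas the submitters' processing notes name HISAT, Bowtie2 and RSEM. Neither the genome build nor the strandedness is given in the sources used here. A gene that a library does not list was taken as 0 there. The study gives read totals per library, which were not used here. FPKM carry no counts, so the count behind a single value is unknown and no counting intervals were computed. Between 0.2 and 1.2 FPKM the most frequent ratio to replicate 1 of 0 h rested on 17 to 22 of 245 to 308 genes in the libraries of 6 h, and no relative depth was taken from it.

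For scaling, FPKM were divided by median-of-ratios factors, 1 per library, and log2 values were taken after adding 0.1. The times were compared for genes with a mean of at least 1 FPKM at either of them, in R 4.3.3 with limma 3.58.1 and jsonlite 2.0.0 (mean-variance trend, only time as a term, two-sided, Benjamini-Hochberg). Sums, ratios and shares were compared by exact two-sided permutation tests in Python 3.11.15 with scipy 1.17.1. Only the limma step was also run on simulated data, with the same SD of a gene at both times. That simulation lacked the wider spread of the cultures of 6 h and did not cover the permutation tests.

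The members and lists were chosen with earlier results of these data known. Named were the 10 members, the study's other acetyl-CoA source genes, 8 partner genes, β-actin, and the 5 genes nearest to the mean chloroplastic PDHC profile, to PDC and to each ACS gene. Gene names and compartments come from the study's tables, and none of their values was used. The alternatives were other scalings (none, TPM, upper quartile), pseudocounts of 1 and 0.01, no filter or one at 10 FPKM, the replicate number as a block, no trend, library weights, the fold limit inside the test (limma treat), and leaving out each library. For ratios, 1 was added to each FPKM or summed FPKM were compared. For shares, log2 values were used instead. The labels describe biological replicates of cultures, and p-values rest on the spread between these 3 cultures per time. In limma the variance of a gene is common to both times and moderated by that of the other genes, although cultures differed more at 6 h.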

Additional observations from a re-analysis of the deposited data

How the results depend on the processing

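Over all genes tested, 42.9% of the calls were higher, against 30.1% without scaling, 25.5% with TPM and 30.3% with upper-quartile scaling. TPM called 1624 genes higher, and the fold limit inside the test (limma treat) called 1384 higher and 2417 lower. Of the 10 members, 5 or 6 were called higher under every alternative, and 1 was called lower except with limma treat, which called 0 (Cz12g10100, adjusted p = 0.15). The calls of the chloroplastic PDHC genes and of PDC held under all 17 alternatives, with log2 fold changes of 3.03 to 4.45 and 2.38 to 3.04. Cz09g15060 lost its call under 7 of 17, besides those given with it under upper-quartile scaling (0.71), library weights (0.99) and limma treat (adjusted p = 0.96).

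The chloroplastic PDHC sum differed by 3.74 on the log2 scale without scaling, 3.61 with TPM and 3.74 with upper-quartile scaling. The mitochondrial sum differed by 0.041, -0.092 and 0.040, and the ACS sum with TPM by -0.77. Mitochondrial E1α (Cz18g13050) turned negative without scaling (-0.23), with TPM (-0.36), with upper-quartile scaling (-0.23) and, with a range of -0.023 to 0.19 over the libraries left out, without replicate 3 of 6 h (-0.023). Cz01g28100, at 0.00, did so in the same cases (-0.31, -0.44, -0.31 and -0.15), with library weights (-0.027) and without replicate 3 of 0 h (-0.031).

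The library titles number the cultures of each time and name no pairing between the times. Deviations of same-numbered libraries correlated at -0.30, -0.11 and -0.49, those of other-numbered libraries at -0.19 to 0.45. As deviations from the mean of 3 libraries per time, these values are tied to each other and cannot settle whether cultures were paired. With the replicate number as a block 2696 genes were called higher and 3521 lower, and 6 members higher and 1 lower (limma). Without the fold limit the block left 7 members higher at an adjusted p under 0.05. The sums and ratios gave p = 0.25 to 0.5 in an exact sign-flip permutation test over the 3 pairs, which cannot go below 0.25. Without counts, the limit that depth sets on low values such as those of Cz11g04290 is unknown.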

Other observations

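β-Actin (Cz05g19150), the reference gene of the study's quantitative PCR, had 344, 336 and 371 FPKM at 0 h and 934, 815 and 560.3 FPKM at 6 h. It was called higher, with a log2 fold change of 1.41 ± 0.21 (SE, n = 3 per time, limma, adjusted p = 0.0015), and with TPM the value was 0.97, which is not called. Its cultures of 6 h stood in the opposite order to those of PDC and both ACS genes. On deposited FPKM 36.6% of the genes tested had the order of β-actin and 34.7% that of PDC.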
